A study of Mus musculus with 6 samples.

Results

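Cell cycle genes were examined in left ventricles of mice at 4 days post injury (dpi), after surgical myocardial infarction (MI) and treatment with CCN3 or PBS. The 45 genes were chosen by symbol from textbook knowledge of the cell cycle, with earlier results of these data known. All 45 were found among the 15909 genes with deposited values. They fall into 9 G1 cyclins, kinases and their effector E2f1, 8 genes of S phase replication, 23 genes of mitosis and cytokinesis, and 5 inhibitors.

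Both groups had permanent ligation of the left anterior descending artery, and no uninjured heart was included. The CCN3 group (3 libraries) received recombinant human CCN3, a secreted matricellular protein, at 6 µg/kg by intraperitoneal injection, and the PBS group (3 libraries) received the vehicle PBS. The methods give adult mice, and C57/B6J as the strain for CCN3 administration. The labels give daily injections for 4 days, whereas the text of the study gives 3 days of injections from 1 dpi and places collection 4 h after the last dose. The labels call the libraries biological replicates but do not state whether each came from a separate animal. P-values therefore refer to these libraries, and they rest on the spread left after the authors removed 2 factors, moderated over all genes. Values are log2 CPM, that is, gene counts scaled to a common library total on a log2 scale, with 2 factors of unwanted variation taken out by the authors. Back on the linear scale, library totals were 1001644 to 1031634 CPM, and read depth is unknown. Over all genes, any pair of libraries had a Pearson r of 0.989 to 0.998. The cardiomyocyte genes Myh6, Tnnt2 and Ttn were abundant in both groups, with group means between 12.09 and 13.15 log2 CPM, as in ventricular tissue.

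A dividing cell passes from G1, where D-type and E-type cyclins activate cyclin-dependent kinases and release E2F transcription factors from the retinoblastoma protein, to S phase, where the genome is copied, and then through G2 to mitosis and cytokinesis. Genes of mitosis are transcribed late in the cycle, and many carry a CHR element (cell cycle genes homology region) and CCAAT boxes near the start site, while many replication genes carry E2F sites. Adult mouse cardiomyocytes rarely divide, and in the first week after infarction fibroblasts, macrophages and endothelial cells are the main dividing cells of the heart. In bulk tissue, more dividing cells and more of these transcripts per cell cannot be told apart.

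The promoters of 5 genes are shown to place the transcripts described here beside the elements known from cycling cells. They come from RefSeq on GRCm38.p6, whereas the expression values rest on GRCm39, and each spans 250 bases before to 50 bases after the start site, 5′ to 3′ on the strand of the gene. Capitals mark the CHR motif TTTGAA, the box CCAAT and the E2F motif TTCCCGC, with its variant spellings TTGGCGC and, searched as well, TTCGCGC, on either strand. E2F motifs can overlap each other and a CCAAT box. Mki67 (chr7:135716330-135716629, minus strand) and Racgap1 (chr15:99651607-99651906, minus strand) stand for mitosis and cytokinesis, Mcm6 (chr1:128359656-128359955, minus strand) and Rrm2 (chr12:24708004-24708303, plus strand) for S phase. Pttg1 (chr11:43425932-43426231, minus strand) is a mitotic gene whose transcript moved the other way.
Mki67: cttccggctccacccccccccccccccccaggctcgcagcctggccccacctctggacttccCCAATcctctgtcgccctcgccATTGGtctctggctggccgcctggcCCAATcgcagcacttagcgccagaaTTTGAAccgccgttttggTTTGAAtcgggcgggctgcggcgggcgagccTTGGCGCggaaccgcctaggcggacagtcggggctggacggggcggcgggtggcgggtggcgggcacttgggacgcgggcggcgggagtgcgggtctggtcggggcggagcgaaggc
Racgap1: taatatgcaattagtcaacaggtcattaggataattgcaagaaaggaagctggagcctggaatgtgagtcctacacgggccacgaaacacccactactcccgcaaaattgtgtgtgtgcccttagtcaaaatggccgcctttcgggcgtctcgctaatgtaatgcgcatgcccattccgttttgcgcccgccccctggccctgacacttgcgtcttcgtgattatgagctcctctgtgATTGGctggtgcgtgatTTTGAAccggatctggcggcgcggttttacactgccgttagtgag
Mcm6: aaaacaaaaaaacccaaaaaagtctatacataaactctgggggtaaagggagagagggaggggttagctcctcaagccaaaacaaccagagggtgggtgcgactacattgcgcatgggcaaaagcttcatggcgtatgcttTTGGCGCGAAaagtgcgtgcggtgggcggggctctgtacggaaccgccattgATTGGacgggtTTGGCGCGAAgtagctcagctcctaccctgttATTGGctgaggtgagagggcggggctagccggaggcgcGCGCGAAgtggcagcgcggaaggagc
Rrm2: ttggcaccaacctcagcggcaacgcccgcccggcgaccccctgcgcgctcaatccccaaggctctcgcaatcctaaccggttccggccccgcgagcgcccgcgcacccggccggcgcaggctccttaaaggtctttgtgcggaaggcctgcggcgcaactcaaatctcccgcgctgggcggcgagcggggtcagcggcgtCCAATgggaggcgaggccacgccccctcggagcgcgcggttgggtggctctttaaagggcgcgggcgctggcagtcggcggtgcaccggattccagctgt
Pttg1: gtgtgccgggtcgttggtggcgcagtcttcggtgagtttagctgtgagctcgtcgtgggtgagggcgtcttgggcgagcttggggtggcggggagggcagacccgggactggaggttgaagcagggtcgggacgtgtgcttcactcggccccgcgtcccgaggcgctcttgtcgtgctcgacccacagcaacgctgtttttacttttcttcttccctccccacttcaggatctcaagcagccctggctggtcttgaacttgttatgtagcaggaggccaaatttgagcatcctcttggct
The Mki67 window held 2 CHR motifs, 3 CCAAT boxes and 1 E2F motif, and the Racgap1 window 1 CHR motif and 1 CCAAT box. The Mcm6 window held 5 E2F motifs, which partly overlap, and 2 CCAAT boxes but no CHR motif. The Rrm2 window held 1 CCAAT box, and the Pttg1 window none of these motifs. The promoter of Birc5, a mitotic member with a higher mean in CCN3 libraries, also held none.

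Promoters were found for 35 of the 45 genes. Of 19 mitosis and cytokinesis genes with a promoter, 15 held the CHR motif (78.9%) and 17 a CCAAT box (89.5%), against 20.2% and 41.1% of the 27025 genes with a RefSeq promoter. The E2F motifs were in 4 of these 19 (21.1%), against 9.2% of all genes. Of 7 S phase genes, 4 held an E2F motif (57.1%), 7 a CCAAT box and 1, Mcm2, the CHR motif. Of 6 G1 genes, 0 held the CHR motif and Cdk2 alone an E2F motif. Both elements are known from genes like these, so the members are not an independent set for these shares. A match of letters is a description and no evidence of binding.

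The comparison asked whether cell cycle transcripts differed between CCN3 treated and PBS treated ventricles. No member passed the threshold of an adjusted p under 0.2 in limma, which is the false discovery rate used in the study, against 1.6% of all 15909 genes (82 higher, or 0.515%, and 172 lower, or 1.08%). At an unadjusted p under 0.05 in limma, 4 of 45 members were found (8.89%), close to the 10.6% of all genes. These were Rrm2, Ccna2 and Racgap1, with higher values with CCN3 (4.05% of all genes), and Ccnd2, with a lower value (6.59% of all genes). Most members nevertheless had a positive difference. The log2 fold change (Log2FC, CCN3 against PBS) was positive in 43 of 45 members, compared with 49.4% of all genes, and its median was 0.19 for the members and 0.00 for all genes. Groups did not overlap, with CCN3 higher, for 16 of 45 members (35.6%) and for 15.1% of all genes. In either direction this held for 33.3% of all genes. The members share libraries and are known to be transcribed together in dividing cells, so these counts do not add up as separate observations.

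The 4 classes differed in the size of these values. The median Log2FC was 0.26 for mitosis and cytokinesis (a 1.20-fold level), 0.11 for S phase replication, 0.06 for G1 cyclins and kinases and 0.09 for the inhibitors. The mean log2 CPM over the 23 mitotic genes was 5.0, 4.93 and 5.13 in PBS replicates 1, 2 and 3, and 5.54, 5.16 and 5.11 in CCN3 replicates 1, 2 and 3. CCN3 replicate 1 was therefore far above the other 5 libraries, while CCN3 replicate 3 lay just below PBS replicate 3. In the S phase class CCN3 replicate 1 was also the highest and CCN3 replicate 3 also below PBS replicate 3, with 5.23, 5.25 and 5.35 in the PBS libraries and 5.57, 5.37 and 5.32 in the CCN3 libraries. The inhibitors stayed between 5.28 and 5.36 in all 6 libraries.

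**Figure D1:**
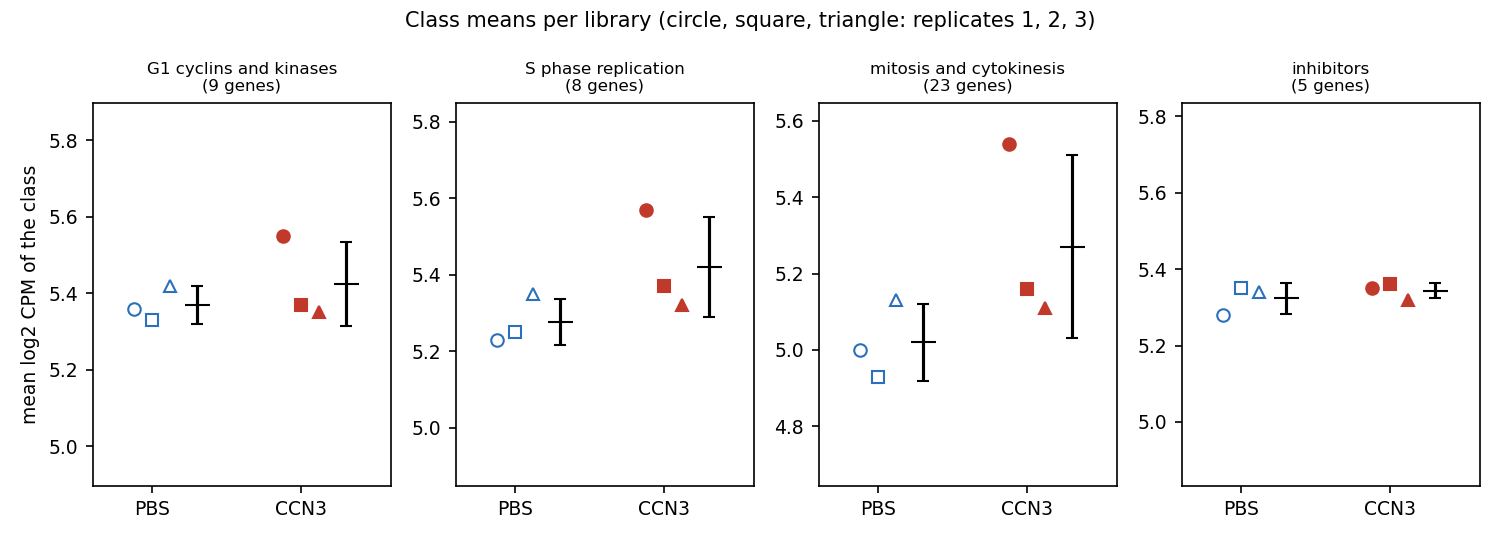
Mean log2 CPM of each class (y axis) in each library, with open symbols for PBS and filled symbols for CCN3, and circle, square and triangle for replicates 1, 2 and 3. The bar to the right of each group is its mean ± SD (n = 3), and every panel spans 1 log2 unit. In mitosis and cytokinesis, CCN3 replicate 1 lies at 5.54 and the other 5 libraries between 4.93 and 5.16.

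The difference was uneven among the CCN3 libraries. CCN3 replicate 1 had the highest value of the 6 libraries for 23 of 23 mitotic genes and 8 of 8 S phase genes, compared with 7 of 9 G1 genes, 2 of 5 inhibitors and 23% of all genes. Its values exceeded the mean of CCN3 replicates 2 and 3 by between 0.28 and 0.57 log2 units across the mitotic genes (median 0.41), while the median over all genes was 0.00. For each of the 23 genes this gap within the CCN3 group was larger than the Log2FC between the groups. Without CCN3 replicate 1 the median Log2FC was 0.14 for mitosis and cytokinesis, 0.06 for S phase replication and 0.00 for G1 cyclins and kinases. Of the 45 members, 35 then had a positive Log2FC, against 49.7% of all genes, and so did 21 of the 23 mitotic genes. Groups did not overlap, with CCN3 higher, for 11 of these 23. That count cannot change without CCN3 replicate 1, which was the highest library for each of the 23, so it shows nothing about that library. The share of all genes went from 15.1% to 22.7%. Leaving out any 1 of the other 5 libraries gave a median between 0.22 and 0.34 for the mitotic genes, all 23 of them positive.

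**Figure D2:**
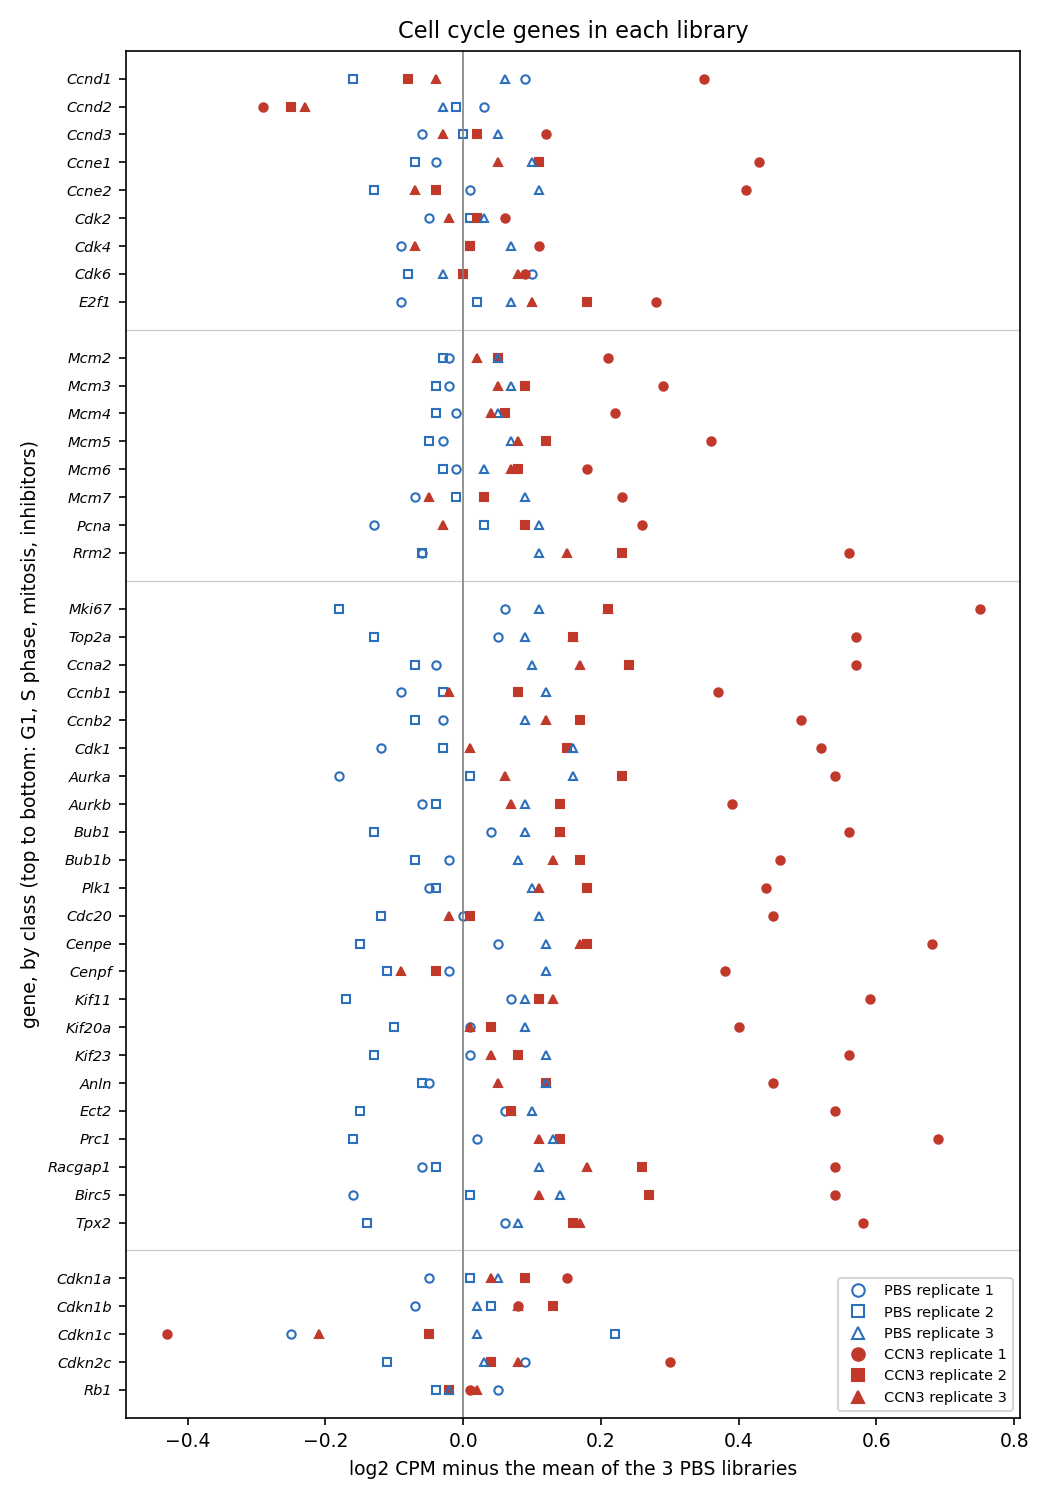
Log2 CPM of each cell cycle gene in each library, as the difference from the mean of the 3 PBS libraries (x axis), with genes on the y axis by class. Open blue symbols are PBS and filled red symbols CCN3 libraries, with circle, square and triangle for replicates 1, 2 and 3. The filled circles of CCN3 replicate 1 stand to the right of all other points for each of the 23 mitotic genes, whereas the 3 CCN3 points of Ccnd2 lie together on the left.

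Markers of cell types were set beside this pattern. The summed level of 10 fibroblast markers was 16400 to 20300 CPM in PBS and 18100 to 20300 CPM in CCN3 libraries, with 18200 CPM in CCN3 replicate 1, and 6 of 10 were higher with CCN3. The 11 macrophage markers summed to 3720 to 3940 CPM in PBS and 3500 to 3730 CPM in CCN3 libraries, with the lowest sum in CCN3 replicate 1 and 3 of 11 higher. The 9 endothelial markers, of which 0 were higher, summed to 1440 to 1520 CPM in PBS and 1300 to 1450 CPM in CCN3 libraries, and CCN3 replicate 1, at 1450 CPM, was the highest of the CCN3 group. Of these 9 genes, 3 (Pecam1, Cdh5 and Esam) had their highest value of the 6 libraries in CCN3 replicate 1 (33.3%, against 23% of all genes). Those values were 0.23, 0.26 and 0.14 log2 units over the mean of the other CCN3 libraries. Kdr, Tie1, Tek, Egfl7, Emcn and Flt1 had their highest value in a PBS library. Of the 7 mural markers 2 were higher, and their sums did not overlap, at 1590 to 1870 CPM in PBS and 1260 to 1370 CPM in CCN3 libraries. The 10 cardiomyocyte markers, 4 of them higher, summed to 40500 to 48900 and 37500 to 41600 CPM. Groups did not overlap for 5 of the 10 with CCN3 lower and 2 with CCN3 higher (18.2% and 15.1% of all genes). Tnni3 passed as lower (Log2FC -0.44, limma adjusted p = 0.177), as did Kcnj8 and Abcc9 of the mural list (1.08% of all genes). In that list Cspg4 and Pdgfrb had positive Log2FC, of 0.21 and 0.13. The fibroblast gene Mfap5 passed as higher (0.515% of all genes). Erythroid sums, from 1180 to 4230 CPM in PBS and from 1850 to 3470 CPM in CCN3 libraries, spread widely within both groups, and 2 of 5 measured genes were higher. Neutrophil sums were 55.0 to 92.7 and 62.1 to 80.3 CPM (2 of 6 measured genes higher), and lymphocyte sums 34.3 to 37.8 and 32.8 to 35.9 CPM (1 of 8 higher). The T cell receptor genes Cd3d, Cd3e and Cd3g were at low levels, between -1.09 and -0.09 log2 CPM. Ly6g was not analysed here. The part of cell composition in the values of the cell cycle genes was not tested.

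The D-type cyclins, which link growth signals to the cell cycle, did not move together. Ccnd2, which encodes cyclin D2, had 8.20, 8.16 and 8.14 log2 CPM in the PBS libraries and 7.88, 7.92 and 7.94 in the CCN3 libraries. All 3 CCN3 values were below all 3 PBS values, as for 18.2% of all genes, and the spread within each group was 0.03 (SD, n = 3). The Log2FC was -0.25 ± 0.06 (SE), a level of 0.84 of that in PBS, with a 95% interval from -0.39 to -0.12. Its adjusted p in limma was 0.204, just outside the threshold. Leaving out PBS replicate 1 gave 0.0804, PBS replicate 2 gave 0.169 and CCN3 replicate 1 gave 0.127, while the other 3 libraries gave 0.222 to 0.262. In the fits where Ccnd2 passed, so did 13.9%, 2.75% and 8.33% of all genes, in that order. With genes under a mean of 1 log2 CPM left out, it was 0.198. Ccnd2 lies on chromosome 6 from 127102125 to 127129156 on the minus strand (GRCm39). Its value in CCN3 replicate 1 was close to those of the other CCN3 libraries, unlike the mitotic genes.

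Ccnd1, which encodes cyclin D1, had 7.22, 6.97 and 7.19 log2 CPM in PBS and 7.48, 7.05 and 7.09 in CCN3 libraries. The groups overlapped, and the Log2FC of 0.08 was -0.06 without CCN3 replicate 1. Ccnd3 had a Log2FC of 0.04 ± 0.07 (SE). Per kilobase of the longest coding transcript in GENCODE, the level of Ccnd2 was 5.50 ± 0.03 log2 CPM per kb in PBS, above Ccnd1 at 5.18 ± 0.14 and Ccnd3 at 4.43 ± 0.06 (SD, n = 3). In CCN3 libraries the per-length levels of Ccnd1 (5.26 ± 0.24) and Ccnd2 (5.25 ± 0.03) did not differ beyond their spread. Levels per length depend on the transcript chosen.

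The kinases that D-type cyclins activate had small differences. Cdk4 had a Log2FC of 0.02 (95% interval -0.17 to 0.20) and Cdk6 of 0.06 (-0.11 to 0.23). Cdk2, the partner of E-type cyclins, had a Log2FC of 0.02 (-0.15 to 0.19). Per kb, Cdk4 was the most abundant of the 3 in PBS, at 5.22 ± 0.08 log2 CPM per kb, before Cdk2 at 3.42 ± 0.04 and Cdk6 at 2.92 ± 0.09. The E-type cyclins, which drive entry into S phase, had Log2FC of 0.20 (Ccne1) and 0.11 (Ccne2), with CCN3 replicate 1 the highest library for both, and values of 0.09 and -0.05 without it. E2f1, an activating transcription factor of G1 and S phase genes, had 3.21, 3.32 and 3.37 log2 CPM in PBS and 3.58, 3.48 and 3.40 in CCN3 libraries. The groups did not overlap, but the lowest CCN3 value was close to the highest PBS value, and the Log2FC of 0.19 ± 0.11 (SE) did not pass (limma adjusted p = 0.603).

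All 8 S phase genes had a positive Log2FC. Rrm2, the small subunit of ribonucleotide reductase that makes deoxyribonucleotides, had 4.79, 4.79 and 4.96 log2 CPM in PBS and 5.41, 5.08 and 5.0 in CCN3 libraries. The groups did not overlap, and the gap between CCN3 replicate 1 and the other CCN3 libraries was larger than that between CCN3 replicate 3 and PBS replicate 3. The Log2FC was 0.32 ± 0.12 (SE), or 0.20 without CCN3 replicate 1 (limma adjusted p = 0.438 and 0.300). The subunits of the Mcm2-7 helicase, which unwinds DNA at replication forks, had Log2FC between 0.07 (Mcm7) and 0.19 (Mcm5). Mcm6 had the smallest SE of the helicase genes, with 6.11, 6.09 and 6.15 log2 CPM in PBS and 6.30, 6.20 and 6.19 in CCN3 libraries and a Log2FC of 0.11 ± 0.06 (SE). Mcm2, Mcm3 and Mcm4 had Log2FC of 0.09, 0.14 and 0.10, and their groups overlapped. Mcm7 had a Log2FC of -0.01 without CCN3 replicate 1. Pcna, the sliding clamp of DNA polymerases, had a Log2FC of 0.10 (95% interval -0.14 to 0.35). Processed pseudogenes of Pcna, Ccnb1 and Ccnd3 are annotated, so reads of these 3 genes may have been shared with near-identical copies.

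Genes of mitotic entry were examined next. Mki67, which encodes the Ki-67 protein of cycling cells and coats mitotic chromosomes, had 7.62, 7.38 and 7.67 log2 CPM in PBS and 8.31, 7.77 and 7.77 in CCN3 libraries. CCN3 replicates 2 and 3 were level with each other and just above the highest PBS library. The Log2FC of 0.39 ± 0.17 (SE, a 1.31-fold level) was the largest of the 45 members, with a 95% interval from -0.01 to 0.79, and it was 0.21 without CCN3 replicate 1. On GRCm39, Mki67 lies on chromosome 7 from 135291513 to 135318299 on the minus strand. Ccna2, which encodes cyclin A2 of S phase and G2, had 5.87, 5.84 and 6.01 log2 CPM in PBS and 6.48, 6.15 and 6.08 in CCN3 libraries. Its groups did not overlap either, and the Log2FC was 0.33 ± 0.12 (SE), or 0.21 without CCN3 replicate 1 (limma adjusted p = 0.393 and 0.244).

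Cdk1, the kinase that drives entry into mitosis, had 4.91, 5.0 and 5.19 log2 CPM in PBS and 5.55, 5.18 and 5.04 in CCN3 libraries. Apart from CCN3 replicate 1, the CCN3 values lay within the PBS range, and the Log2FC of 0.22 became 0.08 without that library. Its partners Ccnb1 and Ccnb2, the B-type cyclins, had Log2FC of 0.14 and 0.26. Top2a, a topoisomerase that untangles chromosomes, had a Log2FC of 0.29, and the groups did not overlap. Plk1, a kinase of mitotic entry and centrosome maturation, had a Log2FC of 0.24.

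**Figure D3:**
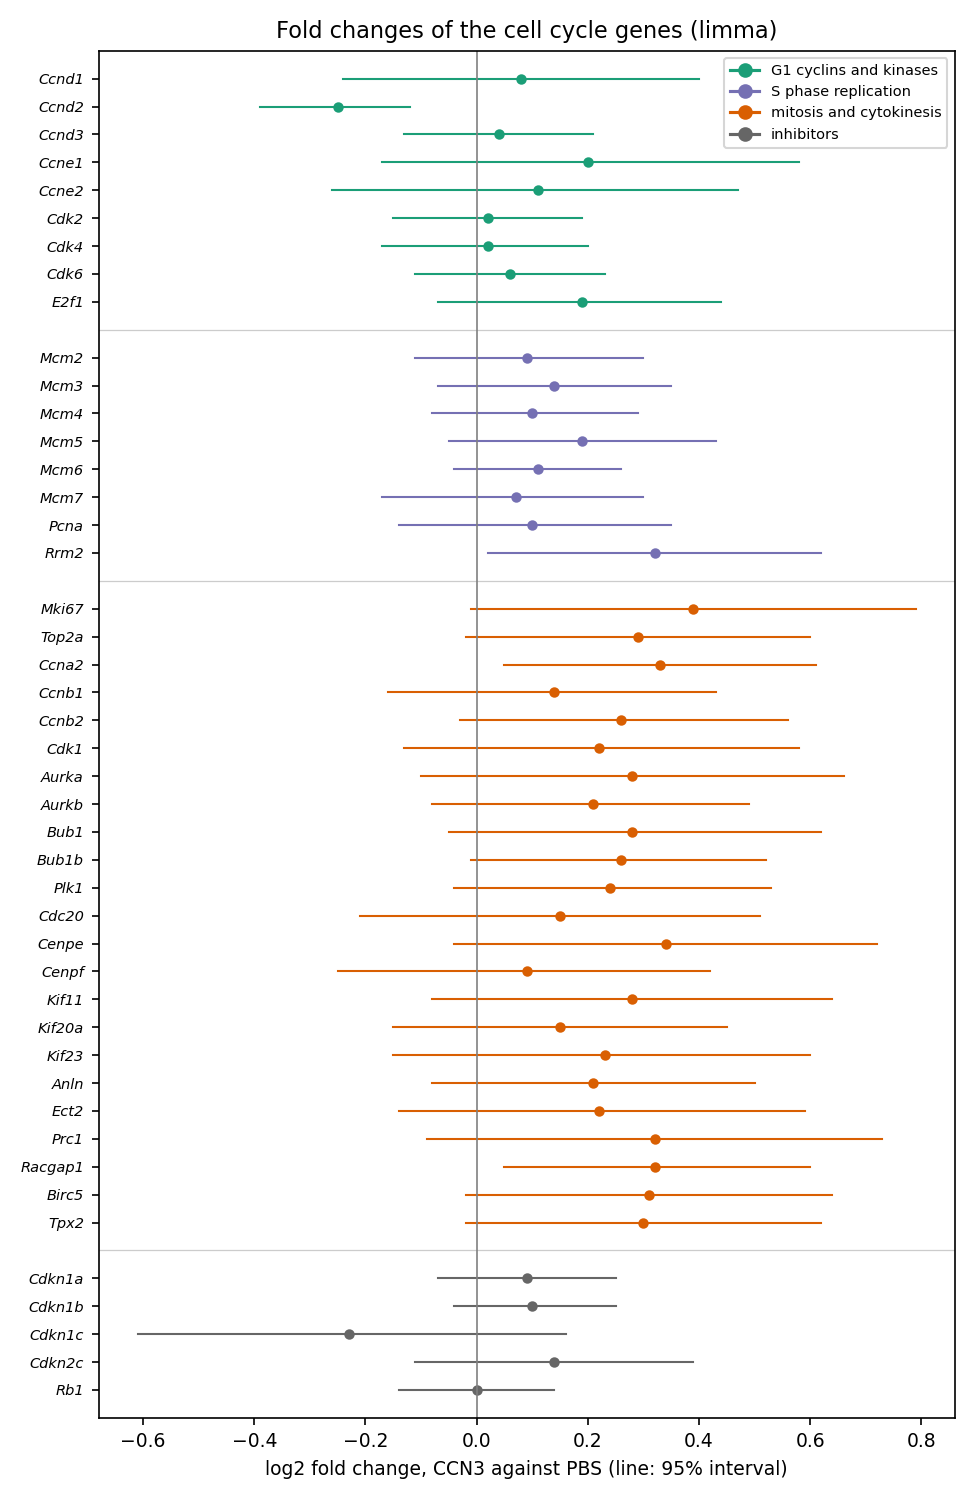
Log2 fold change of each cell cycle gene, CCN3 against PBS (x axis), as a point with its 95% interval from limma as a line, with genes on the y axis coloured by class. The intervals of Ccnd2 (-0.39 to -0.12), Rrm2 (0.02 to 0.62), Ccna2 (0.05 to 0.61) and Racgap1 (0.05 to 0.60) leave out 0, before adjustment for the number of genes.

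Genes of the spindle, kinetochore and checkpoint had Log2FC between 0.09 and 0.34. Cenpe, a kinetochore motor that moves chromosomes to the spindle equator, was the largest at 0.34 (0.17 without CCN3 replicate 1), and Cenpf, a kinetochore protein, was the smallest at 0.09 (-0.06 without it). The checkpoint kinases Bub1 and Bub1b, the latter encoding BubR1, had Log2FC of 0.28 and 0.26, while Cdc20, the activator of the anaphase-promoting complex, had 0.15. The spindle factors Tpx2 and Kif11, a kinesin that separates the poles, had 0.30 and 0.28. Aurka, a kinase of the spindle poles, had 0.28. Groups did not overlap, with CCN3 higher, for Cenpe, Bub1, Bub1b, Tpx2 and Kif11 (15.1% of all genes), and they overlapped for Cenpf, Cdc20 and Aurka. The margins were narrow. CCN3 replicates 2 and 3 had 5.47 and 5.49 log2 CPM of Kif11, against 5.45 in the highest PBS library. For Tpx2 these values were 5.51 and 5.52, against 5.43.

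Cytokinesis genes act at the midzone and the cleavage furrow. Racgap1, a subunit of the centralspindlin complex, had 5.02, 5.04 and 5.19 log2 CPM in PBS and 5.62, 5.34 and 5.26 in CCN3 libraries. All 3 CCN3 values were above the PBS values, and the Log2FC was 0.32 ± 0.11 (SE), or 0.22 without CCN3 replicate 1 (limma adjusted p = 0.378 and 0.245). Racgap1 lies on chromosome 15 from 99518377 to 99551998 on the minus strand (GRCm39). Its partner in that complex, Kif23, had 0.23 on the same Log2FC scale, and the groups overlapped. Prc1, which bundles midzone microtubules, had a Log2FC of 0.32, and CCN3 replicate 1 lay 0.57 log2 units above the mean of the other CCN3 libraries, the widest such gap among the members. Ect2, which activates RhoA at the furrow, Anln, a scaffold of the contractile ring, and Kif20a, a midzone kinesin, had Log2FC of 0.22, 0.21 and 0.15.

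The chromosomal passenger complex joins the kinase Aurkb with Birc5 (survivin) and Incenp. Aurkb had 3.65, 3.67 and 3.80 log2 CPM in PBS and 4.10, 3.85 and 3.78 in CCN3 libraries. CCN3 replicate 3 was within the PBS range, and the Log2FC of 0.21 ± 0.12 (SE) was 0.11 without CCN3 replicate 1. Birc5 had a Log2FC of 0.31, or 0.20 without that library. Incenp, which is not among the 45 members, had 5.05, 4.95 and 5.05 log2 CPM in PBS and 5.42, 5.23 and 5.24 in CCN3 libraries, which did not overlap. Its Log2FC of 0.28 ± 0.08 (SE) did not pass with all libraries (limma adjusted p = 0.290), but it did without CCN3 replicate 1, at 0.22 (adjusted p = 0.164), and without PBS replicate 1 (adjusted p = 0.145), fits in which 8.33% and 13.9% of all genes passed.

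**Figure D4:**
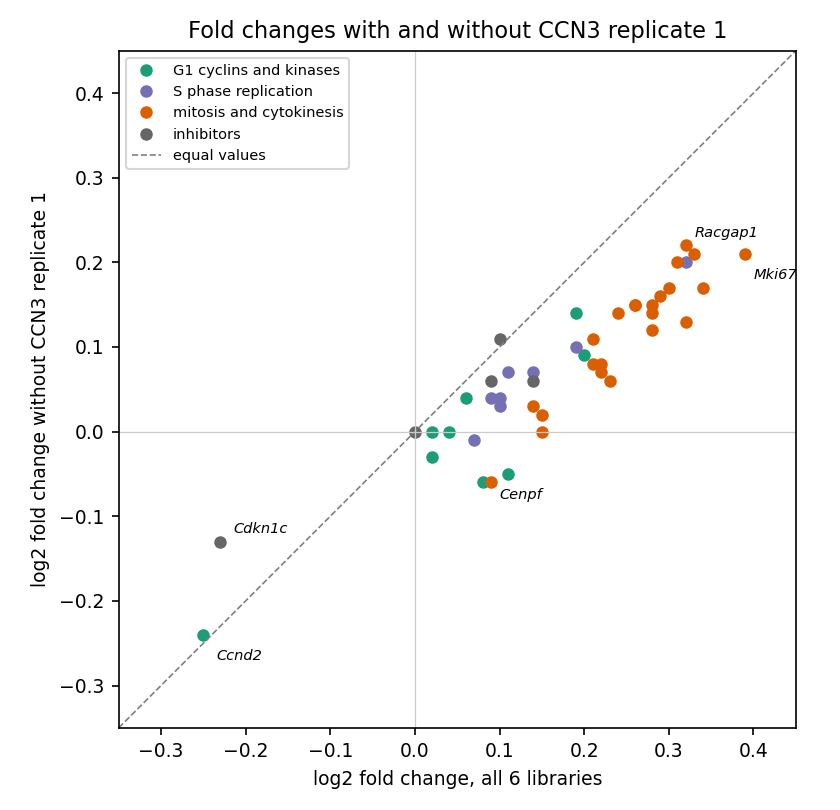
Log2 fold change of each cell cycle gene in all 6 libraries (x axis) against that without CCN3 replicate 1 (y axis), 1 point per gene, coloured by class, with the line of equal values dashed. The mitotic genes lie below the line, with Mki67 at 0.39 and 0.21, whereas Ccnd2 lies on it, at -0.25 and -0.24.

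The inhibitors showed no common direction. Cdkn1a (p21), a target of p53, had 5.53, 5.59 and 5.63 log2 CPM in PBS and 5.73, 5.67 and 5.62 in CCN3 libraries, with a Log2FC of 0.09 (95% interval -0.07 to 0.25). Cdkn1b (p27) had a Log2FC of 0.10 ± 0.06 (SE), and its groups did not overlap. Cdkn1c (p57) was the other member with a negative value. It had 3.55, 4.02 and 3.82 log2 CPM in PBS and 3.37, 3.75 and 3.59 in CCN3 libraries, a wide spread with overlap, and its Log2FC of -0.23 had a 95% interval from -0.61 to 0.16. Cdkn2c (p18), an inhibitor of Cdk4 and Cdk6, had a Log2FC of 0.14, or 0.06 without CCN3 replicate 1. Rb1, the retinoblastoma protein that holds E2F factors inactive, had a Log2FC of 0.00 and an interval from -0.14 to 0.14. Per kb, Cdkn1b (4.08 ± 0.06 log2 CPM per kb in PBS), Rb1 (3.91 ± 0.05) and Cdkn1a (3.55 ± 0.05) were above Cdkn1c (2.80 ± 0.24) and Cdkn2c (2.39 ± 0.10).

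Other genes of the cycle, outside the 45, were taken from fixed lists. Of 52 further mitosis genes, 50 had a positive Log2FC (49.4% of all genes), with a median of 0.26. They were measured in the same libraries as the 45 members, so they are not a separate observation. In 50 of the 52, the highest value was in CCN3 replicate 1 (23% of all genes). Without that library the median was 0.11. Among them 0 rose and 1 fell (1.08% of all genes fell), and 7 had an unadjusted p under 0.05 (13.5%, against 10.6% of all genes). The gene that fell was Pttg1, which encodes securin, the inhibitor of separase that is destroyed at anaphase. Pttg1 had 5.36, 5.32 and 5.36 log2 CPM in PBS and 5.09, 5.01 and 5.01 in CCN3 libraries, so all CCN3 values were below the PBS values. Its Log2FC was -0.31 ± 0.06 (SE), a level of 0.807 of that in PBS (limma adjusted p = 0.192). It did not pass without PBS replicate 3 (adjusted p = 0.269), CCN3 replicate 2 (0.208) or CCN3 replicate 3 (0.230), nor after median centring of the libraries (0.220) or without a mean-variance trend (0.427). Pttg1 lies on chromosome 11 from 43311071 to 43321000 on the minus strand (GRCm39). The window shown for Pttg1 held none of the motifs searched, and other start sites of the gene were not searched. The promoter of Birc5, a member with a Log2FC of 0.31, also held none. Cenpa, the other of these 52 genes with a negative Log2FC (-0.05), held a CHR motif and a CCAAT box. A link between motifs and fold changes was not tested. The condensin genes Smc4 and Ncaph, which compact chromosomes, had Log2FC of 0.34 and 0.27.

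Of 40 further replication genes, 26 had a positive Log2FC, with a median of 0.08, and 0 passed in limma, with 0 at an unadjusted p under 0.05. The smallest p belonged to Uhrf1, which maintains DNA methylation at replication (Log2FC 0.24), Mcm10 (0.27), Lig1 (0.17) and Cdc6 (0.25), the last of which loads the Mcm helicase onto origins. Of 24 further G1 and E2F regulators 0 passed in limma, with 4 at an unadjusted p under 0.05 (16.7%, against 10.6% of all genes) and a median Log2FC of 0.07. E2f6, a repressor of E2F target genes, had 6.17, 6.14 and 6.12 log2 CPM in PBS and 5.93, 5.96 and 5.99 in CCN3 libraries. E2f3, an activator, had 4.72, 4.63 and 4.67 in PBS and 4.95, 4.86 and 4.89 in CCN3 libraries. The groups of both genes did not overlap, with Log2FC of -0.18 ± 0.06 and 0.22 ± 0.07 (SE, limma adjusted p = 0.330 and 0.339). Both passed in limma without PBS replicate 1 (adjusted p = 0.134 and 0.116) and without CCN3 replicate 1 (0.164 and 0.189), as did 13.9% and 8.33% of all genes. Skp2, which targets p27 for degradation, and Myc had Log2FC of 0.24 and 0.30.

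The number of members at an unadjusted p under 0.05 in limma also turned on single libraries. It was 2 without PBS replicate 1 (4.44% of members, against 19.6% of all genes), 2 without PBS replicate 2 (4.44% against 12%) and 3 without CCN3 replicate 1 (6.67% against 16.9%). It was 8 without PBS replicate 3 (17.8% against 9.73%), 12 without CCN3 replicate 2 (26.7% against 10.9%) and 17 without CCN3 replicate 3 (37.8% against 11.2%). Fits that kept CCN3 replicate 1 and left out another CCN3 library thus gave the most. Among members, Ccnd2 alone passed the adjusted threshold in any of these 6 fits. These fits used the deposited values, without repeating the removal of factors, so a library left out may still have shaped the others. Each fit had 2 residual degrees of freedom, as the main fit did.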

How the data were processed

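Per the labels and the methods of the study, stranded mRNA libraries from left ventricles were read from 1 end, and the authors quantified transcripts of GRCm39 with Salmon 1.4.0. The deposited log2 CPM values per gene and library are those left after the authors took out 2 factors of unwanted variation. How low counts were filtered, and with which prior count, is not given in the sources used here. The authors' own table of fold changes, p-values and false discovery rates was not used. The labels gave each library its group and number.

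After group means were subtracted, the deposited log2 values varied in 2 of 4 dimensions (a singular value below 1e-06 of the largest was taken as empty). The 2 empty directions entered the model with treatment, leaving 2 residual degrees of freedom, to which the prior added 4.47. Deviations of the libraries are therefore tied to each other, and SDs cover only the spread left after removal. Each gene was tested, two-sided, by limma 3.58.1 (R 4.3.3) with moderated variances that follow a trend on the mean. Benjamini-Hochberg adjustment ran over 15909 genes with a threshold of 0.2. Intervals are 95% and unadjusted.

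The members and lists were chosen with earlier results of these data known. Every member is named, and of each further list the genes that passed and the 4 with the smallest p. Genes outside this rule are named only as markers or exceptions. Alternatives were treatment only, no trend, median centring, log2(CPM + 1), a filter at a mean of 1 log2 CPM, a replicate block, and each library left out. Positions and transcript lengths were taken from GENCODE vM39 (GRCm39), and promoters from RefSeq (GRCm38.p6).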

Additional observations from a re-analysis of the deposited data

How the results depend on the processing

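Across 12 alternatives for each of 45 members (540 values), 493 kept their direction and their side of the threshold, 34 passed where they had not, and 13 changed sign. All sign changes came from leaving out a library and were close to 0. Over the fits without 1 library the Log2FC ranged from -0.06 to 0.16 for Ccnd1, 0.00 to 0.08 for Ccnd3, -0.05 to 0.19 for Ccne2, 0.00 to 0.04 for Cdk2, -0.03 to 0.06 for Cdk4, -0.01 to 0.13 for Mcm7, 0.00 to 0.24 for Cdc20, -0.06 to 0.17 for Cenpf and -0.01 to 0.03 for Rb1. The median of the inhibitors ranged from 0.06 to 0.11.

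With treatment only (a fit that counts the 2 empty directions as spread measured to be 0), 15 of 45 members passed. The number that passed was 1 (Ccnd2) with genes under a mean of 1 log2 CPM left out. It ranged from 0 to 1 without 1 library. At an unadjusted p under 0.05 there were 11 members with treatment only, 1 without a trend, and 2 to 17 without 1 library. Over all genes, 4771 of 15909 passed with treatment only (2138 higher, 2633 lower), a share close to that of the members. Without a trend 1 gene passed (0 higher, 1 lower), and 104 were lower with each library centred on its median. Without 1 library, 50 to 2219 genes passed (22 to 951 higher, 28 to 1268 lower). The causes of these differences between fits were not tested.

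Deviations of same-numbered libraries correlated across genes at 0.13, 0.97 and -0.98. The removed factors tie the deviations of the libraries to each other, so these values cannot show whether same-numbered libraries were paired. A replicate block was fitted without the removed directions, because both together leave no residual degrees of freedom. In that fit 5932 of 15909 genes passed (2686 higher, 3246 lower). Of the 45 members 15 passed, a smaller share than of all genes, and 8 had an unadjusted p under 0.05. Not every library correlated best with its own number. Groups of 3 libraries and an unknown read depth limit the precision, and the interval of Mki67 alone spans from no difference to 0.79.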

Other observations

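Targets of p53, which halts the cycle after DNA damage, had values in both directions. Of 17 targets, 6 had a positive Log2FC and the median was -0.04, with 0 past the threshold in limma and 4 at an unadjusted p under 0.05 (23.5%, against 10.6% of all genes). Btg2, an antiproliferative gene that is also induced early after stimulation, had 5.71, 5.61 and 5.78 log2 CPM in PBS and 6.29, 5.99 and 5.97 in CCN3 libraries, and its Log2FC of 0.38 was 0.28 without CCN3 replicate 1. Perp, a membrane protein of desmosomes, had a Log2FC of 0.20, while the stress gene Sesn1 had -0.15 and Gadd45a, a growth arrest gene, -0.27. The groups of these 4 genes did not overlap, as for 33.3% of all genes. All 4 passed in limma without PBS replicate 1 (adjusted p from 0.0993 to 0.176), where 13.9% of all genes passed, and Btg2 and Perp also without CCN3 replicate 1 (0.148 and 0.142), where 8.33% of all genes passed.

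Of 11 further inhibitors and checkpoint genes, 8 had a positive Log2FC, with a median of 0.10, and 0 passed in limma, with 0 at an unadjusted p under 0.05. Cdkn2b (p15) had 1.25, 0.09 and 0.44 log2 CPM in PBS and 1.47, 0.83 and 1.31 in CCN3 libraries. These low values overlapped, and the Log2FC of 0.61 was 0.94 without PBS replicate 1, where it passed with 13.9% of all genes (limma adjusted p = 0.147). Pkmyt1, a kinase that restrains Cdk1, had a Log2FC of 0.26, Btg1 of 0.10 and Gadd45b of -0.14.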
